A study of Mus musculus with 30 samples.

Results

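The genes described here are 6 members of the mouse Ly6 family, Ly6a, Ly6c1, Ly6c2, Ly6d, Ly6e and Ly6i. They were taken by symbol from an expression table of 23060 genes, and each symbol matched 1 row. All 6 also passed the filter on low values, which kept the 14083 genes that reached 1 FPKM in 2 or more libraries. FPKM is the number of sequenced fragments of a gene scaled by transcript length and by the fragments mapped in the library.

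Ly6 proteins are small surface proteins with a cysteine-rich domain, and most are held in the outer membrane by a glycosylphosphatidylinositol (GPI) lipid anchor. In blood cells they are best known as antibody targets that define sorted populations, and several are induced by interferon. Ly6a encodes Sca1, the antigen in the gate for mouse stem cells, Ly6c1 and Ly6c2 encode the Ly6C antigens of monocytes and some T cells, Ly6d marks lymphoid progenitors set on the B cell path, and Ly6e acts on the entry of several viruses.

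The series compared mouse blood and marrow cells of the wild type with cells annotated as derived, titled rEC and read as descended from adult endothelial cells converted to blood stem cells. Bone marrow gave LKS-SLAM cells, a fraction enriched for stem cells, with 3 control and 3 rEC libraries. From blood came Gr1+ Cd11b+ myeloid cells (2 control and 2 rEC), B220+ B cells (3 and 3), Cd3+ Cd4+ T cells (2 and 2) and Cd3+ Cd8+ T cells (3 and 3), all freshly sorted. A further 3 libraries came from adherent derived cells sorted as KLS on day 28 of co-culture with HUVEC, human umbilical vein endothelial cells, and titled FGRS after the factors Fosb, Gfi1, Runx1 and Spi1. In LKS-SLAM and B cells, rEC replicate 2 is titled as clone 47G1, primary, and rEC replicate 3 as secondary. The secondary title is also on replicate 2 of the CD4 rEC cells and on replicates 2 and 3 of the CD8 rEC cells, so the replicates of an rEC group can differ by transplant and by clone. LKS-SLAM control replicate 3 and rEC replicate 1 carry a different annotation (long-term stem cell) from the other LKS-SLAM libraries. The labels give no age, sex or strain, and they do not say that each library came from another animal, so p-values measure the spread between libraries.

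Several libraries stood apart or went against their labels. The FGRS libraries held little of 6 stem cell markers (Kit, Slamf1, Mecom, Hlf, Procr and Meis1), with summed levels of 36.1 to 70.2 FPKM against 367 to 569 FPKM in 5 of the 6 LKS-SLAM libraries. The sixth, LKS-SLAM rEC replicate 2, stood at 107 FPKM, with 187 FPKM of 6 macrophage markers against 2.04 to 11.2 FPKM in the others. It was also high in 2 erythroid markers, Klf1 (201 against 1.06 to 28.5 FPKM in the others) and Epor (116 against 6.02 to 23.8 FPKM). Its sum of 6 erythroid markers, 387 FPKM, lay within the range of the others (30.2 to 1131 FPKM). B cell rEC replicate 1 had 1715 FPKM of 8 T cell markers, against 13.5 to 22.7 FPKM in the other B cell libraries. Results that rest on these libraries are given with and without them. LKS-SLAM control replicate 3 held more markers of other cells than control replicates 1 and 2. Its sums were 51.3 FPKM for T cells (8.08 and 8.96 in those 2), 119.9 FPKM for B cells (36.4 and 40.2) and 1131 FPKM for erythroid cells (218 and 280). Its estimated depth was the lowest. Over the grouped libraries 10165 to 12550 genes stood at 1 FPKM or more, and estimated depth was 0.587 to 1.13 times that of B cell control replicate 2. FPKM carry no counts, so no counting interval can be given, and levels near or below 1 FPKM are the least precise.

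All 6 genes lie within a stretch of chromosome 15 in the GENCODE annotation of mm10. In order they are Ly6d (74762056 to 74763620, minus strand), Ly6e (74955051 to 74959905, plus strand), Ly6i (74979534 to 74983430, minus strand), Ly6a (74994877 to 74998031, minus strand), Ly6c1 (75044018 to 75048830, minus strand) and Ly6c2 (75108158 to 75111970, minus strand). Each has 3 or 4 exons in the transcript used and encodes 127 to 136 residues. Ly6c1 and Ly6c2 are near copies, with 387 of 396 coding bases identical (97.7%). Of the 51-base windows of the Ly6c1 transcript, the length of a read, 31.1% occur unchanged in Ly6c2, and 32% of those of Ly6c2 occur in Ly6c1. A read from these windows cannot be placed by its own bases, although the reads are paired and its mate may fall outside them. The split between Ly6c1 and Ly6c2 is therefore uncertain. How the counting shared such reads is not given in the sources used here. Ly6a shared 86.4% of its coding bases with Ly6i and 82.0% with Ly6c1, but only 3.90% and 1.30% of its windows. Ly6d and Ly6e shared 49.3% to 53.5% of aligned coding bases with the other members and none of their windows.

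The start of the coding sequence of the 2 Ly6c genes is shown because it holds 5 of their 9 differing coding bases. The bases are 1 to 51 of the GENCODE coding sequence, 5′ to 3′, and capitals mark the differing bases.
Ly6c1: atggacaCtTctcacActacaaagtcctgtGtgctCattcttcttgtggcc
Ly6c2: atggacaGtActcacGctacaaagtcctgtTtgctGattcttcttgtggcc

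Between native cell types each member had its own pattern of levels. The 13 control libraries differed across the 5 cell types for 6 of 6 members by a limma F test on log2(FPKM + 1), adjusted p 2.4e-09 for Ly6d to 0.000485 for Ly6a. Of all genes tested 84.6% passed the same test. The levels are not independent of the sorts, since LKS-SLAM cells were sorted with Sca1, the protein of Ly6a, and myeloid cells with Gr1, an antibody that binds Ly6G and Ly6C. Levels below are FPKM means with SD over the libraries of a group. In bulk libraries fewer cells that express a gene and less RNA per cell cannot be told apart.

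**Figure D1:**
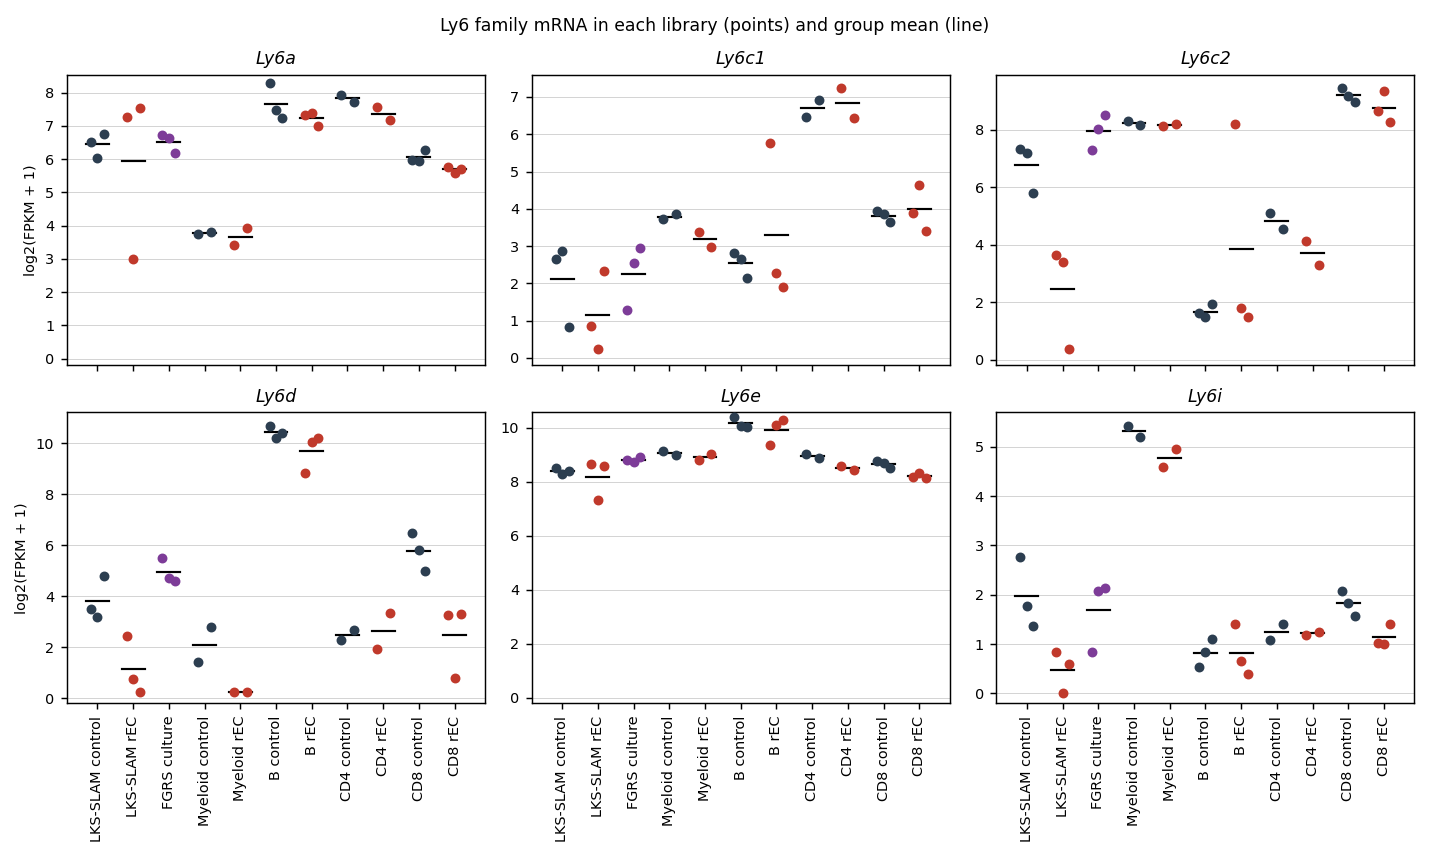
Level of each member as log2(FPKM + 1), 1 point per library, in 11 groups on the horizontal axis (dark for control, red for rEC, purple for FGRS culture), with the group mean as a line. Ly6d is highest in B cells, Ly6i in myeloid cells, Ly6c2 in CD8 and myeloid cells and Ly6c1 in CD4 cells, and LKS-SLAM rEC replicate 2 and B cell rEC replicate 1 lie apart from their groups for Ly6a and for Ly6c1 and Ly6c2.

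Ly6a mRNA was higher on average in CD4 T cells and B cells than in the stem cell fraction that Sca1 helps to define. Control CD4 cells had 245 and 208 FPKM, and control B cells had 309.7, 176 and 149.9 FPKM. Control LKS-SLAM cells had 90.8, 65.0 and 108 FPKM, below every B and CD4 control library. Of all genes 65.6% did not overlap between LKS-SLAM and B cells, and 71.0% between LKS-SLAM and CD4 cells. Control CD8 cells had 62.0, 60.8 and 75.9 FPKM. Neither the difference between LKS-SLAM and B cells (-1.22 ± 0.67 SE on the log2 scale, limma adjusted p = 0.129) nor that between LKS-SLAM and CD4 cells (-1.38 ± 0.75, limma adjusted p = 0.131) passed. Both passed once LKS-SLAM rEC replicate 2 was left out of the model (limma adjusted p = 7.22e-05 and 7.38e-05), although that library is in neither group, since the spread is pooled over groups. Myeloid cells had 12.4 and 12.9 FPKM, and CD8 cells stood 2.29 ± 0.75 above them (limma adjusted p = 0.013). That call was lost without either myeloid control library (limma adjusted p = 0.0654 without replicate 1 and 0.0602 without replicate 2). The order CD4, B, LKS-SLAM, CD8, myeloid was the same in the rEC libraries, but without LKS-SLAM rEC replicate 2 and B cell rEC replicate 1 rEC LKS-SLAM cells came first (168.8 FPKM, against 165.9 FPKM in CD4 and 146 FPKM in B cells).

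In control libraries Ly6c1 was higher in CD4 cells and Ly6c2 in CD8 cells, with neither called when all libraries were used. Ly6c1 stood at 87.5 and 119.6 FPKM in control CD4 cells, against 14.2, 13.5 and 11.4 FPKM in control CD8 cells. Ly6c2 stood at 33.1 and 22.6 FPKM in CD4 cells and at 707, 576 and 500.0 FPKM in CD8 cells. The groups did not overlap for either gene, nor for 51.7% of all genes, and the difference of CD4 from CD8 cells was 2.88 ± 0.82 for Ly6c1 (limma adjusted p = 0.0525) and -4.38 ± 1.23 for Ly6c2 (limma adjusted p = 0.0507), both just above the threshold. Each passed when B cell rEC replicate 1 was left out (limma adjusted p = 0.00277 for Ly6c1 and 0.000128 for Ly6c2). Ly6c1 made up 78.3% ± 8.18 (SD, n = 2) of the summed Ly6c1 and Ly6c2 level in control CD4 cells and 2.16% ± 0.17 (SD, n = 3) in control CD8 cells. These shares rest on the uncertain split of shared reads. For the sum of both genes the difference of CD4 from CD8 cells was -2.19 ± 1.02 (limma adjusted p = 0.34).

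Both Ly6c genes were also present in myeloid cells, and there Ly6c2 dominated. Myeloid control libraries had 312 and 287 FPKM of Ly6c2 and 12.2 and 13.4 FPKM of Ly6c1, so Ly6c1 was 4.11% of the sum. Control LKS-SLAM cells had 159, 146 and 54.7 FPKM of Ly6c2 and 5.29, 6.25 and 0.79 FPKM of Ly6c1. Replicate 3 was the lowest for both genes. Control B cells held the least Ly6c2, at 2.06, 1.77 and 2.8 FPKM. The fall from CD8 to B cells was 7.53 ± 1.10 on the log2 scale (limma adjusted p = 2.54e-05).

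**Figure D2:**
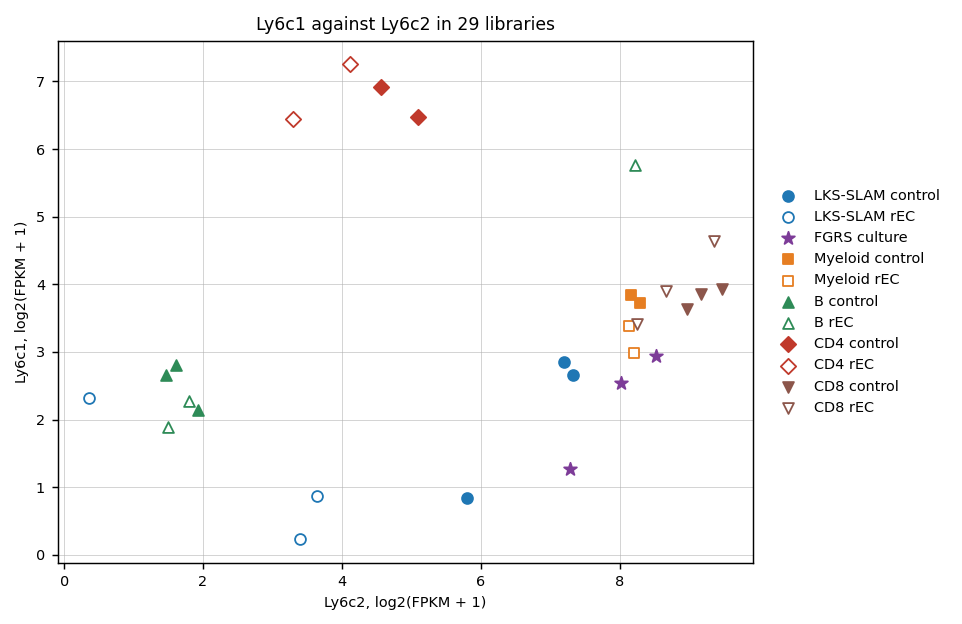
Ly6c1 on the vertical and Ly6c2 on the horizontal axis, both as log2(FPKM + 1), 1 point per library, with symbols for cell types and open symbols for rEC. CD4 libraries lie high for Ly6c1 and CD8, myeloid and FGRS libraries lie high for Ly6c2. The 1 open B cell symbol apart from the other B cells, rEC replicate 1, lies near the CD8 libraries for Ly6c2 and between the CD8 and CD4 libraries for Ly6c1.

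Ly6d was by far highest in B cells. Control B cells had 1641, 1160.1 and 1337 FPKM. Control CD8 cells came next with 86.8, 55.5 and 31.1 FPKM, 4.66 ± 0.64 below B cells on the log2 scale (limma adjusted p = 1.51e-05). LKS-SLAM cells had 10.3, 8.01 and 26.6 FPKM, CD4 cells 3.9 and 5.35 FPKM and myeloid cells 1.63 and 5.87 FPKM. Among the 11 group means the genes with the most similar pattern were Blnk (Pearson r = 0.98), Bcar3 (0.97) and Spib (0.97), of 10708 genes compared. Blnk is an adaptor of the B cell receptor and Spib a transcription factor of B cells and plasmacytoid dendritic cells.

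In several groups outside B cells the level of Ly6d ran beside that of B cell markers. In control CD8 libraries the summed level of 5 B cell markers (Cd79a, Cd79b, Ms4a1, Pax5 and Blnk) was 171 to 404 FPKM, and Ly6d was 18.2% to 21.5% of that sum. In B cell libraries it was 20.9% to 30.4%, in CD4 libraries of both origins 13.2% to 19.5%, and in control LKS-SLAM libraries 19.9% to 28.3%. The part of B cells in the Ly6d of other libraries was not tested. The FGRS libraries went beyond these shares, with Ly6d at 46.5% to 104% of the B cell marker sum. Below them lay the myeloid rEC libraries (2.54% to 2.84%) and the LKS-SLAM rEC libraries (1.07% to 11.7%). Myeloid control libraries had 11.5% to 16.6% and CD8 rEC libraries 11.9% to 22.6%.

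**Figure D3:**
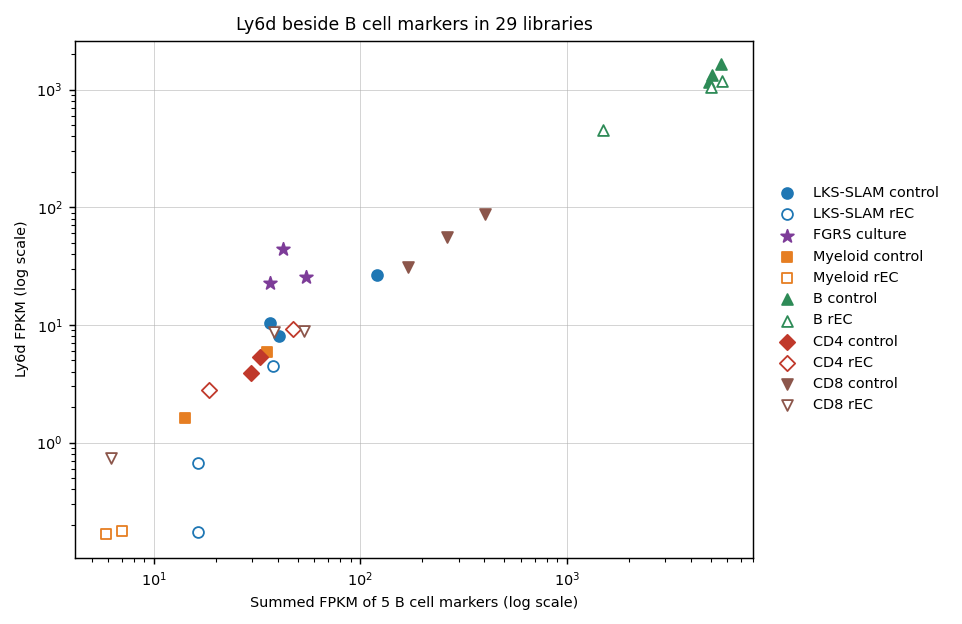
Ly6d FPKM on a logarithmic vertical axis against the summed FPKM of 5 B cell markers on a logarithmic horizontal axis, 1 point per library, open symbols for rEC. Most libraries lie along a band, from 18.2% to 30.4% of the sum in the control CD8 and all B cell libraries, with the 3 FGRS libraries above it and the 2 myeloid rEC and 2 LKS-SLAM rEC libraries below it.

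Ly6e was abundant in every library and varied least. Its control means ran from 333 ± 25.7 FPKM (SD, n = 3) in LKS-SLAM cells to 1160 ± 176 FPKM (SD, n = 3) in B cells, 3.48 times apart. B cells had 1363, 1073 and 1044 FPKM and exceeded myeloid cells, next in order with 557 and 511 FPKM, by 1.11 ± 0.29 (log2; limma adjusted p = 0.0026). The 3 other steps in the order, myeloid, CD4, CD8 and LKS-SLAM, were not called (limma adjusted p = 0.403 to 0.829), and after quantile normalisation CD4 cells stood 0.26 above myeloid cells. Genes of most similar pattern over 11 group means were Fcrl1 (r = 0.96), a receptor-like protein of B cells, Lpgat1 (0.96) and Ero1lb (0.96).

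Ly6i was highest in myeloid cells. Myeloid control libraries had 42.0 and 35.9 FPKM. LKS-SLAM cells, next in order, had 5.82, 2.43 and 1.58 FPKM, 3.34 ± 0.39 lower on the log2 scale (limma adjusted p = 2.1e-07). CD8 cells had 1.98 to 3.22 FPKM, CD4 cells 1.12 to 1.63 FPKM and B cells 0.456 to 1.15 FPKM, all low, and no step between neighbours in the order LKS-SLAM, CD8, CD4 and B cells was called. LKS-SLAM cells did exceed B cells, with a log2 difference of 1.15 ± 0.35 (limma adjusted p = 0.00819), and so did CD8 cells (limma adjusted p = 0.0398). Neither call held under every setting. The LKS-SLAM difference from B cells was 0.006 after quantile normalisation (limma adjusted p = 0.989). The CD8 call was lost with a pseudocount of 0.1 FPKM, without the filter and after quantile normalisation (limma adjusted p = 0.079, 0.0605 and 0.174). After quantile normalisation LKS-SLAM cells stood 0.62 below CD8 cells, in place of 0.15 above them. The most similar genes over 11 group means were Mnda, Il1b and Fpr2 (each r = 0.98), the last a neutrophil receptor for formyl peptides. Il1b encodes an inflammatory cytokine.

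The genes most like the other members give a mixed picture. Ly6a ran with Gpr19 (r = 0.97), Pecam1 (0.97), a junction protein of endothelium and leukocytes, and Alkbh7 (0.96). Ly6c1 ran with Cflar (0.94), an inhibitor of death receptor signalling, Arhgap1 (0.94) and Afap1 (0.94), and Ly6c2 with Atp8b4 (0.96), Pde8a (0.93) and Tspan5 (0.91). Among the members themselves Ly6d and Ly6e were the pair most alike (r = 0.78) and Ly6a and Ly6i the most opposed (r = -0.85), while Ly6c1 and Ly6c2 were unrelated (r = 0.01). These coefficients describe 11 group means that share cell types, and carry no test.

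Over the 10 pairs of control cell types, 30 of 60 tests of a member passed. The median of all genes itself differed between some types, by 0.61 between LKS-SLAM and myeloid cells and by -0.25 to -0.37 between myeloid and lymphoid cells on the log2 scale. Members passed in 4 of 6 tests between LKS-SLAM and myeloid cells, where 66.5% of all genes passed, and in 4 of 6 between LKS-SLAM and B cells (55.6%). They passed in 1 of 6 between LKS-SLAM and CD4 cells (50.5%) and in 1 of 6 between LKS-SLAM and CD8 cells (50.2%), below the background in both. Myeloid cells differed from B cells in 5 of 6 members (53% of all genes), from CD4 cells in 4 (52.9%) and from CD8 cells in 3 (53.4%). B cells differed from CD4 cells in 3 of 6 (21.5% of all genes) and from CD8 cells in 4 of 6 (24.3%). CD4 and CD8 cells differed in 1 of 6, against 3.48% of all genes, and that member was Ly6d (-3.28 ± 0.72, limma adjusted p = 0.00935). Its call was lost without CD4 control replicate 1 or 2 or CD8 control replicate 1 (limma adjusted p = 0.161, 0.0584 and 0.0583).

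Between origins the called differences were falls of Ly6d and Ly6i in rEC cells. In LKS-SLAM cells 2 of 6 members were called lower, against 1.32% of all genes called. Ly6d stood at 4.45, 0.671 and 0.175 FPKM in rEC LKS-SLAM cells, all below the lowest control library (8.01 FPKM). The difference was -2.68 ± 0.64 on the log2 scale (limma adjusted p = 0.0353). Ly6i stood at 0.775, 0 and 0.505 FPKM against 5.82, 2.43 and 1.58 FPKM in control, a difference of -1.5 ± 0.35 (limma adjusted p = 0.0299). Both groups of Ly6i values are low, and their ranges did not overlap, as for 6.44% of all genes.

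The Ly6c2 difference in LKS-SLAM cells was larger and lay just above the threshold. Replicates 1 to 3 had 11.4, 9.51 and 0.285 FPKM in rEC cells against 159, 146 and 54.7 FPKM in control, with no overlap. The difference was -4.31 ± 1.10 on the log2 scale (limma adjusted p = 0.0548). With Ly6c1 and Ly6c2 summed, which avoids the split of shared reads, it was -3.63 ± 0.91 (limma adjusted p = 0.0491). Without B cell rEC replicate 1, which held 296 FPKM of Ly6c2 in a group otherwise near 2, the adjusted p of Ly6c2 alone was 0.000251. The 2 LKS-SLAM libraries annotated as long-term stem cells were control replicate 3 and rEC replicate 1. Ly6c2 stood there at 54.7 and 11.4 FPKM, Ly6d at 26.6 and 4.45 FPKM and Ly6i at 1.58 and 0.775 FPKM. The control and rEC ranges of these 3 genes did not overlap, so every such pair has its lower value in rEC. This pair is therefore no separate test of the annotation.

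The calls of Ly6d and Ly6i in LKS-SLAM cells did not survive every omission. Ly6d was no longer called without control replicate 1, 2 or 3 or rEC replicate 3 (differences of -2.84, -3, -2.19 and -2.22, limma adjusted p = 0.0844, 0.0523, 0.149 and 0.0813). Ly6i was no longer called without control replicate 1 (-1.10, limma adjusted p = 0.22) or 2 (-1.60, limma adjusted p = 0.0627), and neither was called in a model of only these 2 groups (limma adjusted p = 1 for both). With libraries weighted by their quality Ly6d differed by -1.37 (limma adjusted p = 0.38), and after quantile normalisation Ly6i differed by -1.02 (limma adjusted p = 0.146).

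Markers of other cells moved with these 3 genes. The sum of 8 granulocyte markers was 1236 to 1667 FPKM in control LKS-SLAM cells and 393, 14.9 and 10.6 FPKM in rEC replicates 1 to 3. Of the 8, 5 were called lower in rEC cells, among them Retnlg at -6.48 ± 0.47 and S100a8 at -5.33 ± 1.16 (limma adjusted p = 4.5e-08 and 0.0185). The sum of 4 plasma cell markers was 576 to 755 FPKM in control and 54.9 to 172 FPKM in rEC cells, and 1 of the 4 was called lower. Most of the control sum was Jchain, at 498 to 676 FPKM in control and 120, 32.1 and 0.473 FPKM in rEC replicates 1 to 3. Xbp1 went the other way in rEC replicate 3, at 135 FPKM against 57.2 to 71.4 FPKM in control. The sum of 5 B cell markers was 36.4 to 119.9 FPKM in control and 16.3 to 38.0 FPKM in rEC cells. Of those 5 none was called by limma, and 1 had an unadjusted p under 0.05. Ly6d was 19.9% to 28.3% of their sum in control libraries and 11.7%, 4.1% and 1.07% in rEC replicates 1 to 3. The part of these cells in the lower Ly6c2, Ly6d and Ly6i levels was not tested.

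Ly6a in LKS-SLAM cells depended on 1 library. The rEC replicates had 153, 6.99 and 184 FPKM against 65.0 to 108 FPKM in control. With all libraries the difference was -0.51 ± 0.67 (limma adjusted p = 0.875). Without rEC replicate 2, the library low in stem cell markers, Ly6a was 0.96 higher in rEC cells (limma adjusted p = 0.0186), and 4 of the 6 members were called, Ly6a higher and Ly6c2, Ly6d and Ly6i lower. Ly6e turned likewise, from -0.19 ± 0.26 (limma adjusted p = 0.878) to 0.25 (limma adjusted p = 0.505), with 404, 157 and 387 FPKM in rEC and 307 to 359 FPKM in control. With LKS-SLAM rEC replicate 2 and B cell rEC replicate 1 both left out, 4 members were called, and 11.1% of all genes, against 1.32% with all libraries. Ly6a is part of the sorting gate, so its level in LKS-SLAM cells is not independent of the sort.

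**Figure D4:**
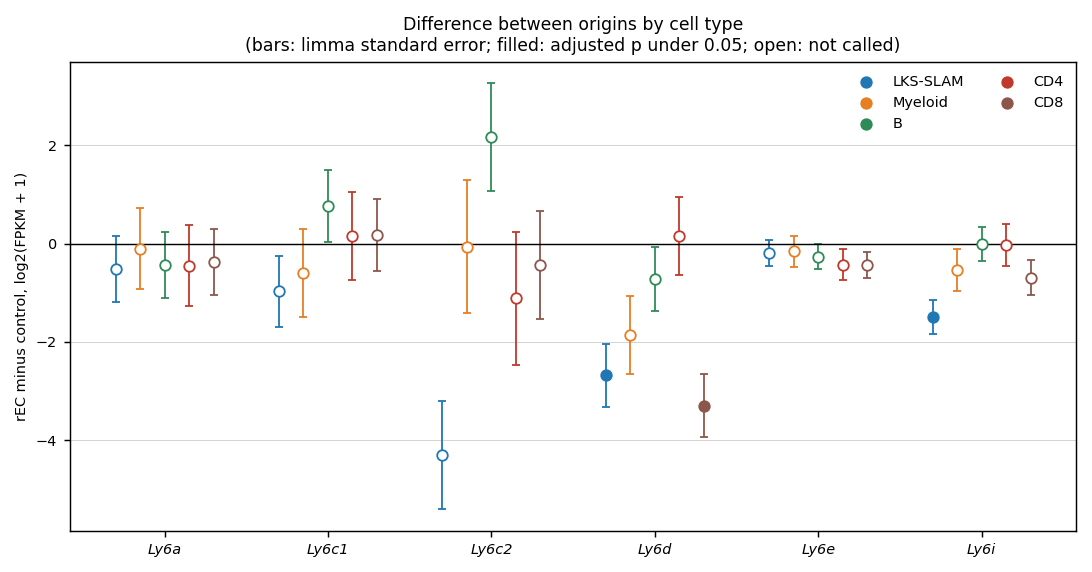
Difference between rEC and control on the log2(FPKM + 1) scale for each member in 5 cell types (colours), with the limma standard error as bars, filled where called and open where not. Only Ly6d in LKS-SLAM and CD8 cells and Ly6i in LKS-SLAM cells are filled, all below 0.

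In CD8 T cells Ly6d was the single member called, against 1.13% of all genes. The rEC libraries had 8.66, 0.733 and 8.93 FPKM against 86.8, 55.5 and 31.1 FPKM in control, a difference of -3.30 ± 0.64 (limma adjusted p = 0.0082) with no overlap, as for 30.5% of all genes. B cell markers fell in the same libraries. Their sum was 171 to 404 FPKM in control and 6.18 to 53.4 FPKM in rEC CD8 cells, and all 5 were called lower, Cd79a by -3.82 ± 0.75 and Ms4a1 by -3.41 ± 0.73 (limma adjusted p = 0.00862 and 0.0192). Ly6d was 18.2% to 21.5% of the B cell marker sum in control and 22.6%, 11.9% and 16.7% in rEC replicates 1 to 3. The part of B cells in the lower Ly6d level was not tested. The call of Ly6d was lost without CD8 control replicate 1 or 2 or rEC replicate 2 (limma adjusted p = 0.0732, 0.0546 and 0.0902). It was also lost in a model of only these groups (limma adjusted p = 0.0995). The other members differed less. Ly6c2 had 405, 657 and 304 FPKM in rEC and 707, 576 and 500.0 FPKM in control CD8 cells (-0.44 ± 1.10, limma adjusted p = 1), and Ly6i 1.02, 1 and 1.64 against 3.22, 2.55 and 1.98 FPKM (-0.69 ± 0.35, limma adjusted p = 0.718).

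In myeloid, B and CD4 cells limma called none of the 6 members between origins. The backgrounds were 0.227% of all genes in myeloid cells, 0% in B cells and 0.0213% in CD4 cells. At an unadjusted p under 0.05 the members numbered 1 in myeloid cells, 0 in B cells and 0 in CD4 cells. The single one was Ly6d in myeloid cells, at 0.178 and 0.167 FPKM in rEC against 1.63 and 5.87 FPKM in control (-1.86 ± 0.79, limma adjusted p = 1). The B cell marker sum there was 7.01 and 5.87 FPKM in rEC and 14.1 and 35.4 FPKM in control. Ly6c2 was level in myeloid cells, at 279 and 295 FPKM in rEC and 312 and 287 FPKM in control (-0.06 ± 1.35). Ly6i stood at 23.0 and 30.0 against 42.0 and 35.9 FPKM (-0.55 ± 0.43, limma adjusted p = 1), with no overlap, as for 44.2% of all genes.

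In B cells rEC replicate 1 differed from the other rEC libraries. Ly6c2 stood at 296, 2.48 and 1.81 FPKM and Ly6c1 at 53.2, 3.84 and 2.72 FPKM, and replicate 1 was the high one in both. Its T cell marker sum was 1715 FPKM, its B cell marker sum 1493 FPKM against 4898 to 5680 FPKM in the other B cell libraries, and its Ly6d 454 FPKM against 1048 and 1190 FPKM. With it the Ly6c2 difference was 2.2 ± 1.1 (limma adjusted p = 1), and without it -0.02. That of Ly6c1 was 0.77 with it and -0.45 without it. In CD4 cells Ly6a (187 and 144 against 245 and 208 FPKM), Ly6e (387 and 347 against 517 and 473 FPKM) and Ly6c2 (16.4 and 8.84 against 33.1 and 22.6 FPKM) were lower in both rEC libraries than in both controls, without a call, and 37.3% of all genes did not overlap there.

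Averaged over the 5 cell types, 1 member was called, against 0.895% of all genes. Ly6d differed by -1.68 ± 0.31 (log2) between rEC and control cells (limma adjusted p = 0.0094), with the same direction in 4 of 5 cell types. B cell markers moved with it, 2 of 5 (Cd79a and Cd79b) being called lower and 5 of 5 having an unadjusted limma p under 0.05, with a median of -1.09, and their part in it was not tested. It was called under each of the 8 other settings and each of the 29 omissions of a library. On the log2 scale Ly6a, Ly6e and Ly6i were lower in 5 of 5 cell types, though Ly6i in B cells by only -0.008 ± 0.35. Their mean differences were -0.37 ± 0.33, -0.29 ± 0.13 and -0.55 ± 0.17, without a call (limma adjusted p = 0.86, 0.43 and 0.158). The signs of Ly6a and Ly6e in LKS-SLAM cells turned without rEC replicate 2, as given above, and that of Ly6i in CD4 cells, -0.03 as deposited, turned to 0.04 after quantile normalisation. In B cells the sign of Ly6e turned without rEC replicate 1, and that of Ly6i turned on omission of single libraries. With LKS-SLAM rEC replicate 2 and B cell rEC replicate 1 both omitted, 3 members were called, against 5.01% of all genes. They were Ly6d, Ly6c2 (-1.28, limma adjusted p = 0.0109) and Ly6i (-0.57, limma adjusted p = 0.0429). Whether a member's difference varied between cell types was asked with a limma F test, which called 0 of 6 members and 0.277% of all genes, and 3 of 6 at an unadjusted p under 0.05 (Ly6c2, Ly6d and Ly6i). Without B cell rEC replicate 1 Ly6c2 passed (limma adjusted p = 0.0412). The falls called in LKS-SLAM and CD8 cells are therefore not shown to be specific to those cells.

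With all libraries the FGRS culture held each of the 6 members at a level nearer to control than to rEC LKS-SLAM cells. Against control LKS-SLAM cells limma called 0 of 6 members, and 0 of 6 had an unadjusted p under 0.05, while 48.8% of all genes were called. Against rEC LKS-SLAM cells 3 of 6 were called, all higher in the culture, against 45% of all genes. Both comparisons use the same FGRS libraries. Without LKS-SLAM rEC replicate 2 Ly6e was nearer to rEC LKS-SLAM cells, at a difference of 0.18 from them. Ly6c2 stood at 155, 259 and 368 FPKM in the culture and at 11.4, 9.51 and 0.285 FPKM in rEC LKS-SLAM cells, a difference of 5.48 ± 1.10 (limma adjusted p = 0.000435). Ly6d stood at 43.9, 25.3 and 22.8 against 4.45, 0.671 and 0.175 FPKM, a difference of 3.79 ± 0.64 (limma adjusted p = 8.14e-05). For both genes every culture library exceeded every rEC LKS-SLAM library, and 33.3% of all genes did not overlap there.

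Ly6i was less firm, at 0.799, 3.22 and 3.39 FPKM in the culture (1.21 ± 0.35 above rEC LKS-SLAM cells, limma adjusted p = 0.00766). Its call was lost without FGRS replicate 3 (0.99, limma adjusted p = 0.0505) and in a model of only these groups (limma adjusted p = 0.139). Ly6a stood at 104, 99.1 and 72.0 FPKM in the culture, a difference of 0.07 ± 0.67 from control LKS-SLAM cells (-0.28 after quantile normalisation; limma adjusted p = 0.939 as deposited), and without LKS-SLAM rEC replicate 2 it was 0.89 below rEC LKS-SLAM cells (limma adjusted p = 0.00441). Both populations were sorted with Sca1. Ly6e stood at 447, 419 and 481 FPKM, above each of the control values of 307 to 359 FPKM (58.6% of all genes did not overlap there), and the difference of 0.43 ± 0.26, which turned to -0.11 after quantile normalisation, was not called (limma adjusted p = 0.175). It was called without LKS-SLAM rEC replicate 2 (limma adjusted p = 0.0357).

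**Figure D5:**
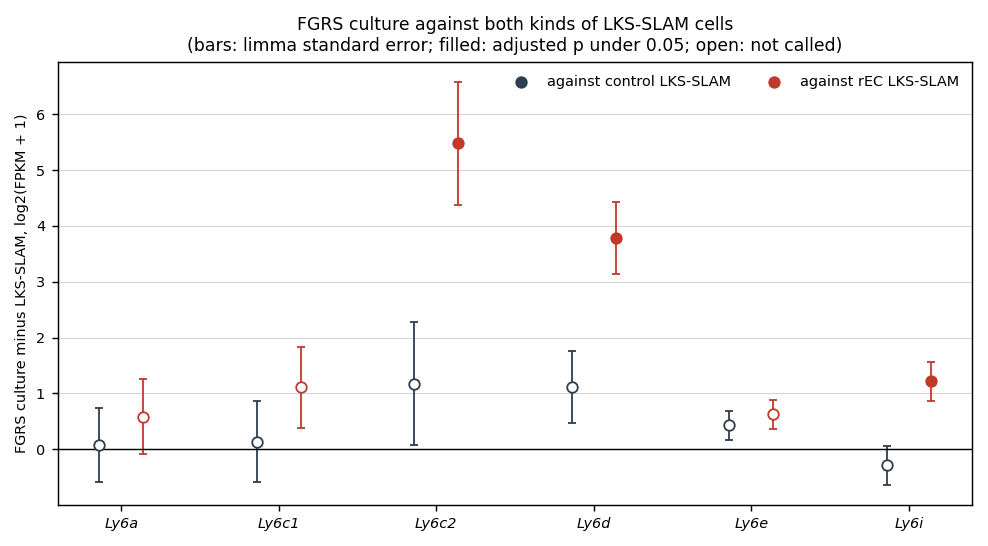
Difference of the FGRS culture from control LKS-SLAM cells (dark) and from rEC LKS-SLAM cells (red) for each member on the log2(FPKM + 1) scale, with the limma standard error as bars, filled where called. No dark symbol is filled, and Ly6c2, Ly6d and Ly6i are filled against rEC LKS-SLAM cells.

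Markers of mature cells accompanied these levels in the culture. The sum of 6 monocyte markers was 268 to 444 FPKM in FGRS libraries against 17.7 to 61.7 FPKM in LKS-SLAM libraries, and the sum of 6 macrophage markers was 68.3, 826 and 511 FPKM. The sum of 8 granulocyte markers was 146, 3940 and 1252 FPKM, lowest in replicate 1, which was also the lowest in Ly6c2 and Ly6i and the highest in Ly6d. That sum was highest in replicate 2, whereas Ly6c2 was highest in replicate 3 (368 FPKM). The sum of 5 plasmacytoid dendritic cell markers (Siglech, Ccr9, Pacsin1, Klk1 and Cd300c) was 20.9, 4.58 and 7.29 FPKM in replicates 1 to 3. The B cell marker sum was 36.8 to 54.4 FPKM, and of these markers Blnk alone was called higher than in control LKS-SLAM cells (1.55 ± 0.53, limma adjusted p = 0.0197). The part of such cells in Ly6c2 and Ly6d was not tested.

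The sequence before the start of the 2 Ly6c genes is shown because Ly6c2, and not Ly6c1, was called higher in the culture than in rEC LKS-SLAM cells, and because the FGRS factors include Spi1 (PU.1), Runx1 and Gfi1. RefSeq windows on GRCm38.p6 were matched for 2 of the 6 members. The 250 bases before the start are chr15:75048838-75049087 for Ly6c1 and chr15:75111972-75112221 for Ly6c2, both on the minus strand and printed 5′ to 3′. Capitals mark matches to the motifs searched.
Ly6c1: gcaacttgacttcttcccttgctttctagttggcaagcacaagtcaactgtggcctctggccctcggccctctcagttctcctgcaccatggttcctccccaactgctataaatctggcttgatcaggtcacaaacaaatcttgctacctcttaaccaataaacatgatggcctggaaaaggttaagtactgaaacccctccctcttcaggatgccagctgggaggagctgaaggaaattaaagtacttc
Ly6c2: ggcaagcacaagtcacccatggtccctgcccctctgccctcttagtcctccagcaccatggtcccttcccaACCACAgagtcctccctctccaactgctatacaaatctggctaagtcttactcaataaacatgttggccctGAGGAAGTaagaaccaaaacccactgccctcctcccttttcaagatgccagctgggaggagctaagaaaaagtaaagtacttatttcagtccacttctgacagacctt

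The windows aligned over 227 columns with 164 identical (72.2%), less than in the coding sequence. Searched on both strands were GAGGAAGT for PU.1, TGTGGT for RUNX, AATCNNNGC for GFI1, TGANTCA for AP-1, TTCNNNGAA for the GAS element of interferon-gamma signalling and GAAANNGAA for IRF factors. The Ly6c2 window held 1 PU.1 match, 108 bases before the start, and 1 RUNX match on the opposite strand, 179 bases before it. The 2 matches do not overlap. No motif searched was found in the Ly6c1 window. Of 32851 windows of the same length 2.44% held the PU.1 letters, 14% RUNX, 8.87% GFI1, 6.75% AP-1, 7.02% GAS and 7.13% IRF. These matches describe letters only, the factors' binding was not measured, and their part in the Ly6c levels was not tested.

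Genes of the pathways that bear on the family were read from fixed lists. Of 26 interferon-stimulated genes, 21 were called lower and 1 higher in the culture than in control LKS-SLAM cells, with a median of -1.62 on the log2 scale against -0.19 for all genes. Oasl2, an OAS-like antiviral protein, fell by 3.74 ± 0.64 and Ifi44 by 3.61 ± 0.60 (limma adjusted p = 8.56e-05 and 6.79e-05). Ly6a and Ly6e, both known as interferon-induced, were not called in that comparison. Of 11 genes of interferon signalling 5 were called lower and 2 higher, among them Irf9, a subunit of the interferon-stimulated gene factor, by -1.79 ± 0.24, and Ifngr2, a chain of the interferon-gamma receptor, by 1.41 ± 0.26. Of 27 genes of GPI anchor synthesis that were tested 5 were called higher and 9 lower (median -0.16), a share near the 48.8% of all genes called, the largest being Pigp at -1.58 ± 0.25. In each of the 5 origin comparisons limma called 0 genes of these 3 lists, with 0 to 3 of a list at an unadjusted p under 0.05. Of 10 genes of T cell memory or naive state, 0 were called between origins in CD4 or CD8 cells, and 0 in each had an unadjusted p under 0.05.

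Of 37 other genes of the Ly6 and urokinase receptor family 33 were analysed, 6 stood at 0 in every library and 12 were tested. Ly6g, the other antigen of Gr1, was not analysed here. Plaur, the urokinase receptor, was the highest, at 219.9 FPKM in control myeloid cells and 90.4 FPKM in control LKS-SLAM cells. Cd177, a neutrophil surface protein, stood at 88.3 FPKM in control myeloid cells. It was the 1 gene of these 12 called between origins in LKS-SLAM cells, at 0.672 FPKM in rEC and 7.34 FPKM in control (-2.46 ± 0.56, limma adjusted p = 0.0252), in the libraries where granulocyte markers were lower. Cd59a, an inhibitor of complement, was at 9.61 FPKM in control LKS-SLAM cells and 2.05 FPKM in the culture (-1.79 ± 0.26, limma adjusted p = 1.75e-05). Lynx1 stood at 21.2 FPKM in control B cells and at no more than 1.90 FPKM in the other control groups. Between the culture and control LKS-SLAM cells 4 of the 12 were called, 3 lower and 1 higher, a smaller share than the 48.8% of all genes.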

How the data were processed

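RNA of sorted and cultured mouse cells was sequenced in 30 poly-A selected, non-stranded libraries of 51 bp paired reads. The authors deposited FPKM values in 1 table, with 23060 gene symbols as rows and libraries as columns. Per the submitters' processing notes the build was mm10, and the tools included Cufflinks 2.2.1, TopHat2 2.1.0, Trimmomatic 0.36, FastQC 0.11.5 and bcl2fastq 2.17. Scaling between libraries and the treatment of reads shared by similar genes are not given in the sources used here.

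Titles put 29 libraries into 11 groups. 1 library, whose title names clone 47G1 (B220+) while its annotation gives the wild type, entered no test. Values were taken as log2(FPKM + 1) and fitted with limma 3.58.1 in R 4.3.3, with an intensity trend, 1 mean per group and 18 residual degrees of freedom. All 14083 genes at 1 FPKM or above in 2 libraries were fitted, and p-values were adjusted by Benjamini-Hochberg over them within each comparison and called at 0.05. Tests were two-sided, and F tests have no direction. Fold changes on this scale are understated for low genes. The fit was tested on simulated data with 200 changed genes.

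The members and lists were chosen with earlier results of these data known. A marker was dropped from each of the stem cell and B cell lists and is not reported here. For each member the 3 most similar genes by Pearson r of group means are named, among genes that reached a group mean of 5 FPKM, leaving out unnamed gene models. From each list up to 3 called genes with the largest difference are named. The alternatives tried were a pseudocount of 0.1 FPKM, no filter, a filter of 5 FPKM, quantile normalisation, quality weights for libraries, a model of only the groups compared, omission of each library or of 2 libraries that stood apart, the sum of Ly6c1 and Ly6c2, and a replicate block. Positions and coding sequences are from GENCODE M21, and windows before the start are from RefSeq. Python 3.11.15 with numpy 2.4.6, pandas 2.3.3, Biopython 1.88 and matplotlib 3.10.9 was used for the rest.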

Additional observations from a re-analysis of the deposited data

Results flagged for a closer look

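The B220+ library whose title and annotation disagree on clone 47G1, and which has no clear group, held 2 relatives of the family above the highest control B cell library. Ly6k stood at 37.8 FPKM there, against at most 6.33 FPKM in control B cells and 1.58, 49.6 and 14.8 FPKM in rEC B cell replicates 1 to 3. 2010109I03Rik, also named Ly6m, stood at 6.12 FPKM, against at most 4.4 FPKM in control B cells. No test was made with this library.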

How the results depend on the processing

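All values here are log2 differences or counts of the 6 members called by limma. With quality weights 3 members were called between origins in CD8 cells (12.2% of all genes) and 3 on average over cell types (10.9%). The F test of origin differences called 3 (9.35%). The culture differed in 1 member from control (69.4%) and in 5 from rEC LKS-SLAM cells (62.1%), and 48 of 60 control pairs passed. Without weights these shares of all genes were 1.13%, 0.895%, 0.277%, 48.8% and 45%, in the same order. These weights used limma's gene-by-gene method, taken after seeing that its REML method stopped before convergence (5 members in LKS-SLAM cells by that method). In a model of only the groups compared the counts were 0 in LKS-SLAM cells (0% of all genes) and 0 in CD8 cells (0.582%). They were 1 for the culture against control (47.3%) and 46 pairs. With both libraries that stood apart left out they were 4 in LKS-SLAM cells (11.1% of all genes), 2 in CD8 cells (3.22%) and 3 on average (5.01%). The F test then called 1 member (3.94%), the comparison of the culture with control 1 (61.6%), and 46 pairs passed. Leaving out each library in turn gave 0 to 4 in LKS-SLAM cells (0 without control replicate 1 or 2, 1 without rEC replicate 3, 4 without rEC replicate 2), 0 to 1 in CD8 cells (0 without control replicate 1 or 2 or rEC replicate 2), 0 to 1 for the culture against control (1 without LKS-SLAM rEC replicate 2) and 0 to 1 by the F test (1 without B cell rEC replicate 1). The share of all genes called at each single omission is not given here, and the cause of these changes was not tested.

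Signs turned for differences that were not called with all libraries. After quantile normalisation Ly6i became 0.039 between origins in CD4 cells, 0.45 in the culture against control LKS-SLAM cells, and -0.069 and -0.62 between control LKS-SLAM and CD4 or CD8 cells. Ly6a and Ly6e became -0.28 and -0.11 in the culture against control, and between control myeloid and T cells Ly6d became 0.095 (CD4), Ly6e -0.26 (CD4) and Ly6c1 0.28 (CD8). With quality weights Ly6a and Ly6e became 0.92 and 0.25 between origins in LKS-SLAM cells, Ly6c1 and Ly6e -0.22 and 0.084 in B cells, Ly6a -0.83 in the culture against rEC LKS-SLAM cells and Ly6c1 0.18 between control LKS-SLAM and B cells. With both libraries left out Ly6a and Ly6e became 0.96 and 0.25 in LKS-SLAM cells, Ly6c1, Ly6c2 and Ly6e -0.45, -0.024 and 0.014 in B cells, and Ly6a -0.89 in the culture against rEC LKS-SLAM cells.

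Leaving out each library in turn, origin differences ranged from -1.31 to 0.96 for Ly6a and -0.43 to 0.25 for Ly6e in LKS-SLAM cells and from -0.36 to 0.15 for Ly6a in myeloid cells. In B cells they ranged from -0.30 to 0.21 for Ly6i, -0.45 to 1.48 for Ly6c1, -0.024 to 3.34 for Ly6c2 and -0.45 to 0.014 for Ly6e. In CD4 cells they ranged from -0.25 to 0.56 for Ly6c1, -0.56 to 0.87 for Ly6d and -0.18 to 0.13 for Ly6i, in CD8 cells from -0.15 to 0.47 for Ly6c1, and on average from -0.34 to 0.048 for Ly6c1. The culture differed from control by -0.59 to 0.13 for Ly6i, -0.13 to 0.24 for Ly6a and -0.51 to 0.62 for Ly6c1, and from rEC LKS-SLAM cells by -0.89 to 1.38 for Ly6a. Control pairs ranged from -0.25 to 0.45 for Ly6i (LKS-SLAM and CD8), -0.79 to 0.22 for Ly6c1 (LKS-SLAM and B), -1.08 to 0.30 for Ly6d (myeloid and CD4), -0.11 to 0.041 for Ly6c1 (myeloid and CD8) and -0.47 to 0.050 for Ly6a (B and CD4).

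Replicate numbers carry no stated pairing. Same-numbered deviations from group means correlated at -0.09 to 0.07 between the culture and control LKS-SLAM cells, at 0.08 in myeloid cells and at -0.17 to 0.18 over control types. With a replicate block 0 members were called between origins in myeloid cells, 0 in the culture against control and 6 by the F test over control types, as without it. Control pairs called were 28 in place of 30, and Ly6a turned to 0.050 between B and CD4 cells. Where omission left 1 library in a group, it was assumed to vary like the other groups. FPKM carry no depth, so levels near or under 1 FPKM, as for Ly6i in lymphoid cells, cannot be given a counting error.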

Other observations

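In the library with no clear group the members stood at 190.2 FPKM for Ly6a, 4.3 FPKM for Ly6c1, 1.94 FPKM for Ly6c2, 977 FPKM for Ly6d, 1241 FPKM for Ly6e and 0.924 FPKM for Ly6i. Ly6d was below each of the 3 control B cell libraries (1160.1 to 1641 FPKM), and the other 5 values lay within the range of those libraries. The composition of the summed members differed by cell type. Ly6d and Ly6e made up 50.0% and 42.2% of it in control B cells, Ly6c2 and Ly6e 52.2% and 35.6% in control CD8 cells, and Ly6e and Ly6a 57.6% and 26.3% in control CD4 cells.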
